A study of Mus musculus with 8 samples.

Results

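The neutrophil granule and calprotectin genes form a set of 9 chosen by name: S100a8 and S100a9 for calprotectin, Ngp, Camp, Ltf and Lcn2 for specific granules, and Elane, Mpo and Prtn3 for azurophil granules. The deposited table of CD11c positive mouse bone marrow cells holds 11756 genes, and 8 of the 9 were listed in it. All 8 passed the filter on low values, which left 10091 genes for testing. Elane, the gene of neutrophil elastase, was not analysed here.

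Granulocytes fill their granules in order as they mature in the bone marrow. Azurophil granules come first, at the promyelocyte stage, and hold myeloperoxidase and serine proteases, and specific granules follow with lactoferrin, lipocalin 2 and cathelicidin. Calprotectin, the complex of S100A8 and S100A9, lies in the cytosol of neutrophils and monocytes, binds calcium, zinc and manganese, and can act on TLR4 once released. Dendritic cells and macrophages, the usual carriers of CD11c, make little of the granule proteins, which therefore serve as markers of granulocytic cells.

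In the acLDL group, 4 libraries came from cells given acetylated low density lipoprotein, a ligand of scavenger receptors, for 24 h on culture day 6. The control group, labelled Ctrl, held 4 libraries of cells that did not receive it. All cells were CD11c positive, sorted by flow cytometry from the marrow of femurs and tibias, and all mice were C57BL/6. The design text gives acLDL as an imitation of atherosclerosis. The labels do not tie libraries to animals or cultures, so the p-values reflect only how much the libraries varied, which may be technical.

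Values are the authors' normalized signal per gene, with library totals from 3917430 to 4385050. No value in the table lies between 0 and 5. In acLDL libraries 1 to 4, 6.98%, 18.5%, 21.9% and 11.1% of all genes were listed at 0. In control libraries 1 to 4 these shares were 12.0%, 11.4%, 5.63% and 9.06%. The libraries of the acLDL group were unlike each other. On the first principal component, which held 62.6% of the variance, acLDL libraries 1 to 4 lay at -66.6, 95.6, 129 and 32.2, and the controls lay between -75.3 and 9.22. An index of short transcripts, the mean log2 deviation of 485 other genes with transcripts under 1000 nt, was 1.11, -1.35, -2.24 and -0.30 in acLDL libraries 1 to 4, against 0.06, 0.93, 1.07 and 0.72 in control libraries 1 to 4. Itgax, which encodes CD11c itself, was between 0 and 189 across acLDL libraries and between 81.5 and 195 across controls, with 0 in acLDL library 3 (log2 fold change -2.42, limma's adjusted p = 0.298).

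No granule or calprotectin gene passed the threshold in the comparison of acLDL with control. Of the 8 genes, 7 had a lower mean with acLDL, where 55.7% of all tested genes did, and Ltf had a higher one. The median log2 fold change was -2.02 over the 8 genes and -0.13 over all tested genes. S100a8, S100a9, Ngp, Camp, Lcn2 and Prtn3 had their lowest values, ties included, in acLDL libraries 2 and 3, as 23.5% of all tested genes had. In 5 of the 8 genes, acLDL libraries 2, 3 and 4 lay below every control, which held for 18.9% of all tested genes. Fewer cells of a type and less RNA per cell cannot be told apart in such bulk samples.

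**Figure D1:**
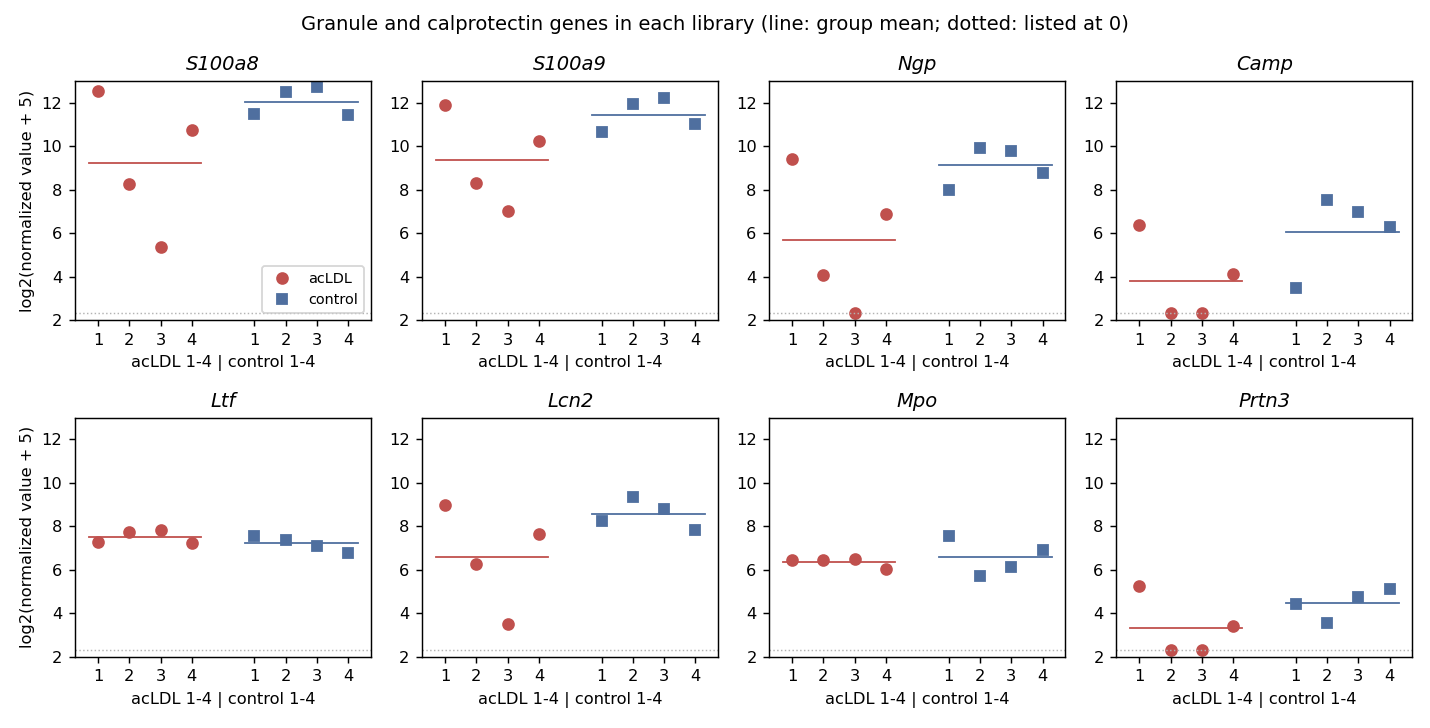
Normalized value of each granule and calprotectin gene in each library, as log2(value + 5), with acLDL libraries 1 to 4 as circles and control libraries 1 to 4 as squares. Horizontal lines are group means and the dotted line marks a gene listed at 0. The lowest points of 6 panels are acLDL libraries 2 and 3, while those of Ltf and Mpo are other libraries.

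Both calprotectin genes lie on chromosome 3 of GRCm38, S100a8 at 90668978 to 90670035, plus strand, and S100a9 at 90692632 to 90695721, minus strand. They are 22.6 kb apart with no other coding gene between them. Their promoters are shown because the genes are neighbours and encode the subunits of calprotectin. The sequences are from RefSeq (GRCm38.p6), 250 bases before to 50 after the start, 5′ to 3′, at chr3:90668821-90669120 (plus strand) and chr3:90695672-90695971 (minus strand). Capitals mark matches on either strand to TTNNGNAA, a pattern of C/EBP factors of myeloid cells, to GAGGAA, a core of PU.1 sites, and to TATAAA, the TATA box.
S100a8: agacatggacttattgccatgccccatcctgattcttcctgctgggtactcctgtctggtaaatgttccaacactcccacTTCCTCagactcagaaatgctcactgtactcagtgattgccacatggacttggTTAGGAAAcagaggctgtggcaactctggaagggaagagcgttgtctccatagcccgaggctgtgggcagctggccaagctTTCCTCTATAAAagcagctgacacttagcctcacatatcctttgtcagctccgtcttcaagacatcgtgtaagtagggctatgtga
S100a9: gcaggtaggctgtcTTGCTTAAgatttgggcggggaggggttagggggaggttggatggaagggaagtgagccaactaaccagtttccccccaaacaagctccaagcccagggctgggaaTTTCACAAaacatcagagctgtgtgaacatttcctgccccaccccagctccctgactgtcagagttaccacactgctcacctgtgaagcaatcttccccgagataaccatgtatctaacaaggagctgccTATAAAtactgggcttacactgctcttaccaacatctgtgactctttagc
The S100a8 window held 1 match to the C/EBP pattern, 2 to the PU.1 core and 1 to the TATA box, the last of which directly follows a PU.1 match without overlap. The S100a9 window held 2 matches to the C/EBP pattern, 0 to the PU.1 core and 1 to the TATA box, and the last begins at the RefSeq start itself. Of 32851 windows of this length, 40.7% held the C/EBP pattern, 28.3% the PU.1 core and 13.6% the TATA box. For S100a8 the RefSeq start lies 93 bases downstream of the GENCODE start.

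S100a8, the subunit through which calprotectin acts on TLR4, had normalized values of 6018.5, 303.5, 36.3 and 1695.5 in acLDL libraries 1 to 4, against 2851.6, 5842.0, 6778.0 and 2756.7 in control libraries 1 to 4. Libraries 2, 3 and 4 with acLDL lay below every control, but library 1 was above 3 of the 4 controls, so the groups overlapped. The mean was 2013.5 ± 2767.4 with acLDL and 4557.1 ± 2060.2 in controls (SD, n = 4 each), with a log2 fold change of -2.81 (SE 1.32) on the log2(value + 5) scale and limma's adjusted p = 0.299.

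S100a9, its partner subunit, had 3798.5, 311, 125 and 1213.4 in acLDL libraries 1 to 4, against 1612.4, 3878.4, 4735.4 and 2069.6 in control libraries 1 to 4. As for S100a8, acLDL library 3 was the lowest and control library 3 the highest. The mean was 1361.9 ± 1692.5 with acLDL and 3073.9 ± 1477.9 in controls (SD, n = 4 each), with a log2 fold change of -2.09 (SE 0.94) and limma's adjusted p = 0.298. Together both genes made up, in percent of the library total, 0.237, 0.0145, 0.00368 and 0.0743 in acLDL libraries 1 to 4, against 0.108, 0.229, 0.276 and 0.121 in control libraries 1 to 4. The ratio of the S100a8 to the S100a9 value, not corrected for length, was 1.58, 0.977, 0.29 and 1.40 in acLDL libraries 1 to 4, against 1.77, 1.51, 1.43 and 1.33 in control libraries 1 to 4. It was above 1 in 6 of 8 libraries and lower in acLDL libraries 2 and 3, where both genes were lowest.

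Of the specific granule genes, Camp (109847379 to 109849617, minus strand), Ngp (110419747 to 110423012, plus strand) and Ltf (111019271 to 111042767, plus strand) lie on chromosome 9, and Lcn2 (32384633 to 32388252, minus strand) on chromosome 2. Ngp is 570.1 kb from Camp, with 8 coding genes between, and 596.3 kb from Ltf, with 20 between. The promoters of Ngp and Ltf are shown since these genes of one granule class had the most unlike profiles, with source and capitals as above, at chr9:110419558-110419857 (plus strand) and chr9:111019042-111019341 (plus strand).
Ngp: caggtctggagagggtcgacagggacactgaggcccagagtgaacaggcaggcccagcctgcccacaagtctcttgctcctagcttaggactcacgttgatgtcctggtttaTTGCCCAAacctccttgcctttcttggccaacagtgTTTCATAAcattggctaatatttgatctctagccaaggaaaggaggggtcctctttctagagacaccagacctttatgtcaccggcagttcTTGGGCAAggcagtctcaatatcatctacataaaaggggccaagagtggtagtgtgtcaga
Ltf: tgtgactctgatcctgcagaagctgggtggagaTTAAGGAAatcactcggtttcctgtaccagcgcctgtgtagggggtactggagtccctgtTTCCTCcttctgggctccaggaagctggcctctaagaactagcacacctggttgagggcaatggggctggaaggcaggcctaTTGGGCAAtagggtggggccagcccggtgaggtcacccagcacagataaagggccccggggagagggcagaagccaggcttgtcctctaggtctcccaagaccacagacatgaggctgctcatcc
The Ngp window held 3 matches to the C/EBP pattern and none to the other motifs. The Ltf window held 2 to the C/EBP pattern and 1 to the PU.1 core. Both hold the match TTGGGCAA, and 15.1% of all windows held at least 2 matches to the C/EBP pattern. The RefSeq start of Ngp lies 61 bases downstream of the GENCODE start. For Ltf both starts compared are at 111019292, inside the gene span given above, which begins at 111019271.

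Ngp, a granule protein related to the cathelicidins, had 674, 11.8, 0 and 113 in acLDL libraries 1 to 4, against 248.5, 971, 868 and 434 in control libraries 1 to 4. It was below every control in acLDL libraries 2, 3 and 4, and library 1 lay within the controls. The log2 fold change was -3.45 (SE 1.35, limma's adjusted p = 0.298). Of the 8 genes it alone had an unadjusted p under 0.05 (0.031), as 8.93% of all tested genes had with a lower and 7.42% with a higher mean.

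Camp, which encodes the antimicrobial cathelicidin, had 79.3, 0, 0 and 12.2 in acLDL libraries 1 to 4, against 6.19, 179, 119 and 72.3 in control libraries 1 to 4. Control library 1 was lower than acLDL libraries 1 and 4, and the log2 fold change was -2.27 (SE 1.12, limma's adjusted p = 0.301). With a pseudocount of 1 it was -3.35, and with 20 it was -1.43. Lcn2, which withholds iron by binding bacterial siderophores, had 502, 71.5, 6.50 and 194 in acLDL libraries 1 to 4, against 300.2, 639.8, 445 and 226 in control libraries 1 to 4. Libraries 2, 3 and 4 with acLDL were below every control, with a log2 fold change of -1.96 (SE 1.01, limma's adjusted p = 0.306).

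Ltf encodes lactoferrin, an iron-binding protein, and had 149.9, 211.5, 224 and 144 in acLDL libraries 1 to 4, against 185, 163, 134 and 105.5 in control libraries 1 to 4. Its highest values were in acLDL libraries 2 and 3, in which Ngp, Camp and Lcn2 were lowest. The mean was 182.5 ± 41.4 with acLDL and 147 ± 34.5 in controls (SD, n = 4 each), and the groups overlapped (log2 fold change 0.31, 95% interval -0.29 to 0.90, limma's adjusted p = 0.479).

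Among the azurophil genes, Mpo lies on chromosome 11 (87793581 to 87804413, plus strand) and Prtn3 on chromosome 10 (79874476 to 79883174, plus strand), 3.1 kb from Elane. Mpo, whose product makes hypochlorous acid, had 82.8, 81.7, 86.65 and 61.4 in acLDL libraries 1 to 4, against 184, 47.8, 65.2 and 116 in control libraries 1 to 4. All acLDL libraries lay within the range of the controls, with means of 78.1 ± 11.3 with acLDL and 103 ± 61.15 in controls (SD, n = 4 each). The log2 fold change was -0.22 (95% interval -1.14 to 0.70, limma's adjusted p = 0.756), and it was 0.06 after quantile normalization and 0.11 without control library 1.

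Prtn3 encodes proteinase 3, a serine protease, and was listed at 33, 0, 0 and 5.515 in acLDL libraries 1 to 4, against 16.7, 6.68, 22.25 and 29.3 in control libraries 1 to 4. Library 1 with acLDL was the highest of all 8, and libraries 2, 3 and 4 were below every control. The log2 fold change was -1.14 (SE 0.73, limma's adjusted p = 0.366), from values close to the lowest the table holds. Its log2 fold change was -2.19 with a pseudocount of 1 and -0.48 with 20.

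Over all tested genes limma called 0, or 0.0%, at an adjusted p under 0.05, and 1650 had an unadjusted p under 0.05. Groups did not overlap in 0 of the 8 genes, and in 2.2% of all tested genes with lower and 3.44% with higher values with acLDL. The count rested on acLDL library 1. Without it, and with the same genes tested, the log2 fold change was -4.69 for Ngp (limma's adjusted p = 0.025), -2.93 for S100a9 (0.031) and -3.91 for S100a8 (0.038). Camp at -3.14 (limma's adjusted p = 0.051), Lcn2 at -2.76 (0.052) and Prtn3 at -1.78 (0.057) missed the threshold. Of the 10091 genes in that fit, 2190 were called in either direction. With the filter applied anew without that library, 14.5% of tested genes were called lower and 7.71% higher.

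Leaving out acLDL library 3 alone gave log2 fold changes of -1.52 for S100a8, -1.30 for S100a9, -2.33 for Ngp, -1.78 for Camp, -0.94 for Lcn2 and -0.81 for Prtn3, and no gene passed. Leaving out acLDL libraries 2 and 3 together gave log2 fold changes of -0.39 for S100a8, -0.38 for S100a9, -0.97 for Ngp, -0.81 for Camp, -0.25 for Lcn2 and -0.14 for Prtn3. None had an unadjusted p under 0.05, where 2.88% of tested genes had. With the short-transcript index as a covariate, the log2 fold change was 0.02 for S100a8, -0.03 for S100a9, -0.48 for Ngp, -0.16 for Camp, 0.10 for Lcn2 and 0.00 for Prtn3. There too 0 of the 8 genes had an unadjusted p under 0.05, against 4.99% of tested genes, and with a replicate block 0 of 8 against 7.23%. Since 3 of the 4 acLDL libraries had a lower index than any control, the index and the treatment cannot be told apart in full.

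**Figure D2:**
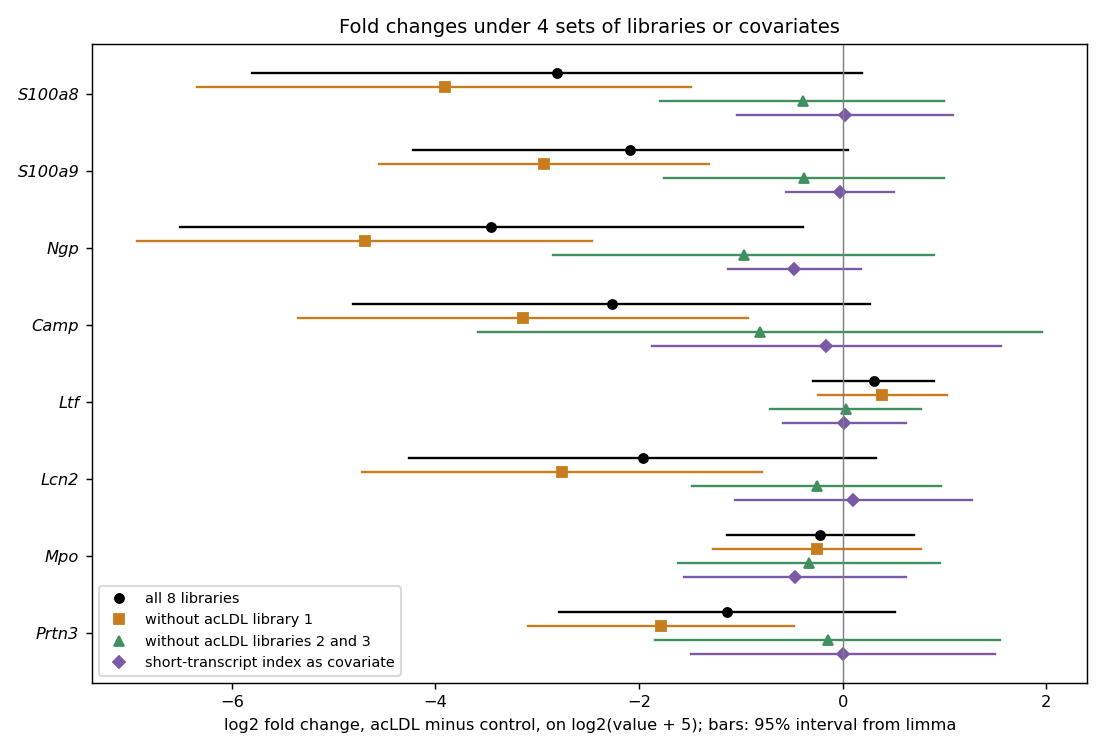
Log2 fold change of each gene, acLDL minus control, on the log2(value + 5) scale, with limma's 95% intervals as bars. Circles use all 8 libraries, squares leave out acLDL library 1, triangles leave out acLDL libraries 2 and 3, and diamonds add the short-transcript index; S100a8 stands at -2.81, -3.91, -0.39 and 0.02 in that order.

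Among the granule and calprotectin genes, those with shorter transcripts had lower log2 fold changes than Ltf and Mpo. The longest coding transcript in GENCODE has 486 nt for S100a8, 519 for S100a9, 758 for Camp, 915 for Lcn2, 1025 for Prtn3 and 1222 for Ngp, and these had log2 fold changes from -3.45 to -1.14. Ltf with 2743 nt and Mpo with 2750 nt had 0.31 and -0.22. Of all tested genes, the 489 with transcripts under 1000 nt had a median of -1.50, and 62.6% of them were lowest in acLDL libraries 2 and 3. Genes with transcripts from 1000 to 1500 nt, the range of Prtn3 and Ngp, had a median of -0.90. The 6784 with 2000 nt or more had a median of -0.04, and 18.2% were lowest there. Of these long genes 3524 had a lower and 3260 a higher mean. Of the 489 with transcripts under 1000 nt, 420 had a lower and 69 a higher mean. Csf2rb2 with 4740 nt, named below for its profile near that of Ngp, was at -3.30. Itgax with 4046 nt, named above as the CD11c gene, was at -2.42. Neither was picked to represent the long genes. Whether length shaped the values of the granule genes was not tested.

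**Figure D3:**
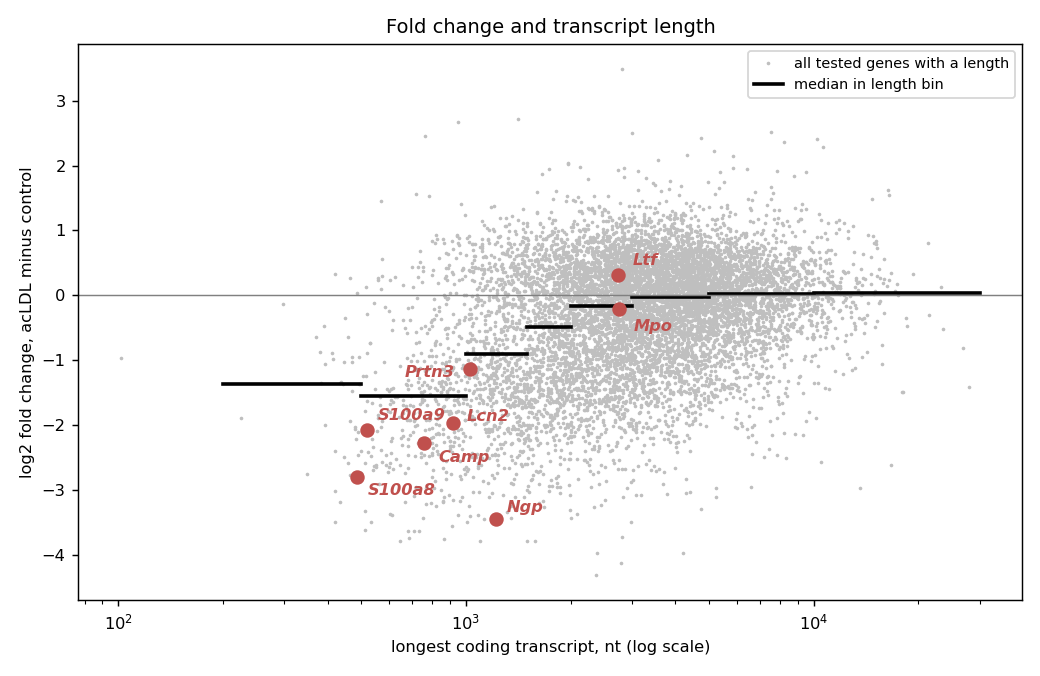
Log2 fold change, acLDL minus control, against the longest coding transcript in nt on a log axis, for all tested genes with a length (grey) and the 8 granule and calprotectin genes (red, named). Black lines are medians in length bins, -1.55 from 500 to 1000 nt and -0.02 from 3000 to 5000 nt, and Ngp lies at -3.45.

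Profiles over the 8 libraries were compared by the root mean square difference between log2 values centred on each gene's mean. The most alike were S100a9 and Lcn2 at 0.47, then S100a8 and Ngp at 0.53 and Ltf and Mpo at 0.60. The calprotectin pair differed by 0.75, and the azurophil pair Mpo and Prtn3 by 1.08. Ngp and Ltf, both of specific granules, differed most of all pairs, by 2.88. The SD over the libraries was 2.81 for Ngp and 2.57 for S100a8, and 0.35 for Ltf and 0.57 for Mpo.

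The tested genes nearest to the mean profile of the 8 were Saraf at a difference of 0.08, Tomm6 at 0.15, Adssl1 and Eif3i at 0.16 and Rgs10 at 0.18. That mean joins Ltf and Mpo with genes of unlike profiles. Lowest values in acLDL libraries 2 and 3 were common, in 23.5% of all tested genes. Saraf had 289, 34.6, 14.2 and 94.7 in acLDL libraries 1 to 4, against 155, 261, 324 and 183 in control libraries 1 to 4. Nearest to S100a9 were Mrps18c, Dbi and Mrpl34, each at 0.20. Nearest to Ngp were Rnh1 at 0.26 and Csf2rb2 and Spcs1 at 0.28, and nearest to Prtn3 were Chaf1b at 0.26, Sf3a3 at 0.27 and Clec4a1 at 0.28.

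Other S100 genes, for small calcium-binding proteins, had a lower mean with acLDL in 6 of 6 tested (median log2 fold change -2.65), and none passed. S100a10, the partner of annexin A2, had 736.5, 0, 0 and 172 in acLDL libraries 1 to 4, against 179.8, 790.5, 1032.8 and 683 in control libraries 1 to 4. It was at 0 in acLDL libraries 2 and 3 (log2 fold change -3.74, limma's adjusted p = 0.298). S100a11 was between 9.11 and 3803.7 across acLDL libraries and between 940.5 and 4028.9 across controls. S100a13 was between 0 and 153 across acLDL libraries and between 55.7 and 179 across controls.

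Of 14 other tested genes of specific and gelatinase granules, 10 had a lower and 4 a higher mean (median log2 fold change -0.80), and none passed. Lyz2, a lysozyme gene that macrophages also use, was between 12897.9 and 49987.3 across acLDL libraries and between 31512.4 and 57452.9 across controls (log2 fold change -1.15, limma's adjusted p = 0.298). Fpr2, a formyl peptide receptor, was between 13.2 and 374 across acLDL libraries and between 111 and 418 across controls. Cd177, a surface protein of neutrophils, was between 0 and 17.4 across acLDL libraries and between 5.98 and 24.6 across controls. Mmp8, neutrophil collagenase, was singled out after its values were seen, and was between 7230.0 and 9125.4 across acLDL libraries and between 6269.0 and 7756.7 across controls (log2 fold change 0.15, limma's adjusted p = 0.560).

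Of 6 other tested azurophil genes, 3 had a lower and 3 a higher mean (median 0.03), and none passed. Prss57, a serine protease of these granules, had 69.3, 197, 87.4 and 36.7 in acLDL libraries 1 to 4, against 26.4, 50.03, 36.8 and 0 in control libraries 1 to 4 (log2 fold change 1.83, limma's adjusted p = 0.298). Ctsc, whose product activates the granule proteases, was between 114 and 1063.8 across acLDL libraries and between 554 and 1200.2 across controls. Lyz1 was between 269.6 and 392 across acLDL libraries and between 204 and 344 across controls. Protease inhibitors had a lower mean in 8 of 9 tested genes (median -1.21), and none passed. Serpinb6a was between 11.1 and 137 across acLDL libraries and between 82.1 and 119 across controls. The stefin genes Stfa1, between 0 and 21 across acLDL libraries and between 10.5 and 24.4 across controls, and Stfa2l1, between 0 and 122.5 across acLDL libraries and between 26.8 and 199 across controls, belong to a family of near copies and are uncertain.

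Of 7 tested genes for calprotectin receptors and signalling, 4 had a lower and 3 a higher mean (median -0.48), and none passed. Tlr4 had 147, 164, 147 and 111 in acLDL libraries 1 to 4, against 120.2, 84.7, 89.4 and 100.4 in control libraries 1 to 4, and its groups overlapped. Its adaptor gene Myd88 was between 0 and 174 across acLDL libraries and between 29.9 and 164.5 across controls. Cd14, a co-receptor of TLR4, was between 0 and 180.3 across acLDL libraries and between 7.45 and 251 across controls. Of 5 tested genes for lactoferrin and lipocalin receptors and iron, 4 had a lower mean (median -0.54), and none passed. Slc11a1, a metal transporter, was between 0 and 40.05 across acLDL libraries and between 9.96 and 51.8 across controls. Fth1, ferritin heavy chain, was between 310.2 and 38176.2 across acLDL libraries and between 14877.0 and 40534.0 across controls. Tfrc, the transferrin receptor, was between 0 and 36.95 across acLDL libraries and between 5.63 and 34.1 across controls.

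Regulators of granulocyte formation had a lower mean in 7 of 9 tested genes (median -0.30), and none passed. Klf4, a transcription factor of monocytes, was the one of the 55 tested related genes whose groups did not overlap. Of all tested genes, 2.2% did not overlap with lower values with acLDL, and 3.44% with higher values. Klf4 was at 111 ± 18.35 with acLDL and 224 ± 41 in controls (SD, n = 4 each). Its log2 fold change was -0.98 (SE 0.23, limma's adjusted p = 0.298). Cebpb was between 10.1 and 359 across acLDL libraries and between 43.9 and 797 across controls. Runx1 was between 236 and 299.8 across acLDL libraries and between 268 and 455 across controls. Cebpe, the factor that drives specific granule genes, was singled out for that role and was between 0 and 17.4 across acLDL libraries and between 0 and 21.7 across controls (log2 fold change -0.19, limma's adjusted p = 0.881).

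**Figure D4:**
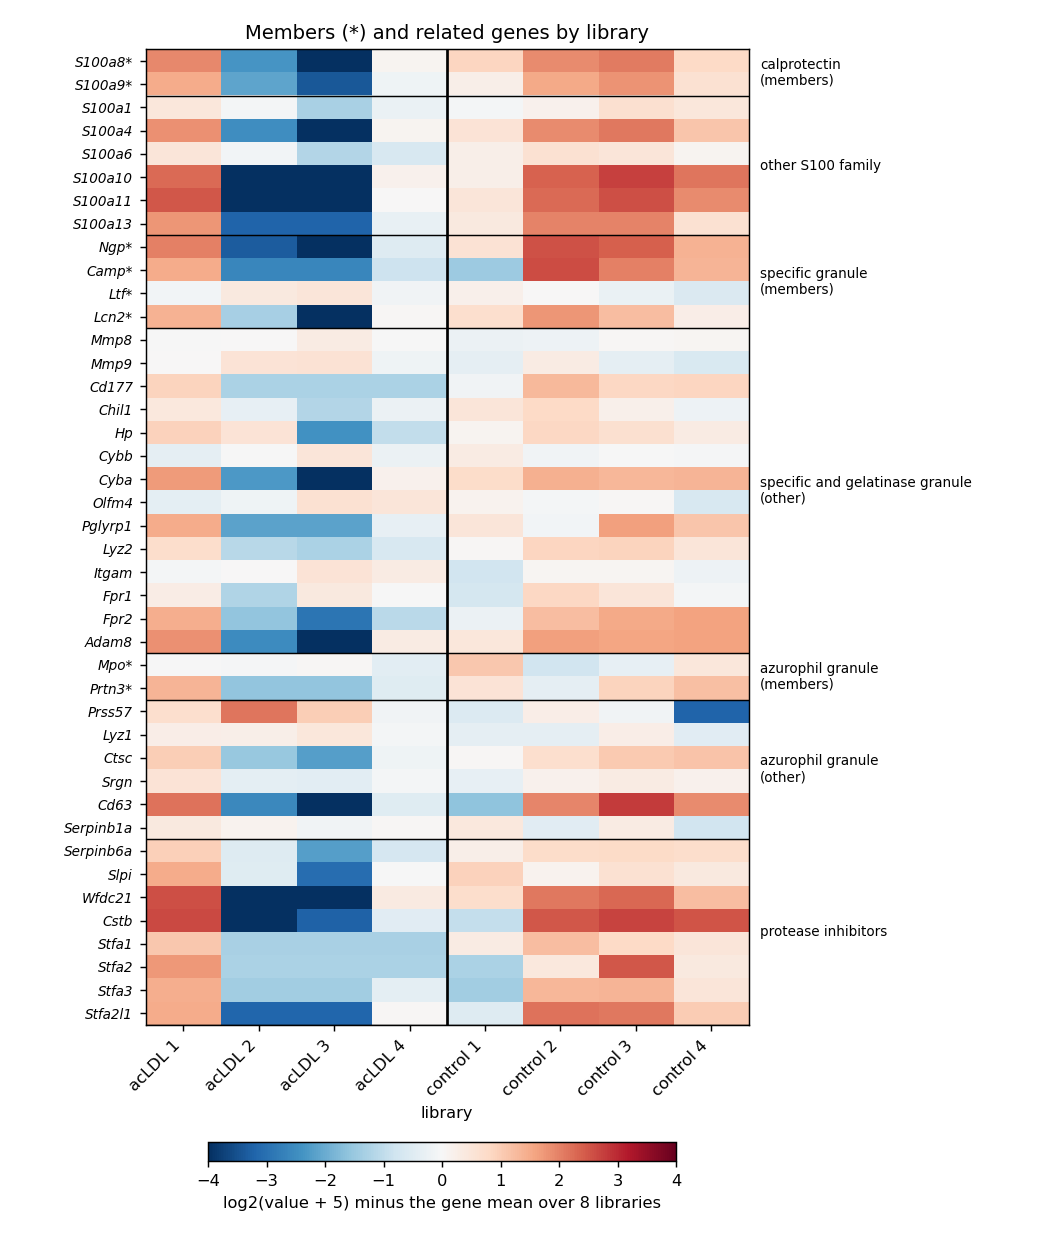
Log2(value + 5) minus each gene's mean over the 8 libraries, as colour, for granule and calprotectin genes (asterisks) and related genes in rows, with acLDL libraries left of control libraries. Blue in acLDL libraries 2 and 3 runs through S100a8, S100a9, Ngp, Camp and Lcn2 and through S100a10 and S100a11, but not through Ltf, Mpo or Mmp8.

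Markers of cell types that a CD11c sort could hold were set beside these values. Of 16 markers of mature neutrophils, 13 were listed and 12 tested. Mmp8, Mmp9, Trem1 and Clec4e had a higher mean and the other 8 a lower one. The median log2 fold change of the 12 was -1.28. Their sum was between 8413.7 and 10098.1 across acLDL libraries and between 7439.9 and 9415.9 across controls, and without Mmp8 it was between 931 and 2028.7 across acLDL libraries and between 1171.0 and 1884.5 across controls. Cxcr2, the chemokine receptor of mature neutrophils, had 8.86, 6.15, 16.6 and 0 in acLDL libraries 1 to 4, against 5.88, 98.2, 32.1 and 35.3 in control libraries 1 to 4. Of 9 markers of granulocyte-monocyte progenitors, 5 were tested. Cd34 and Flt3 had a lower mean, and Cd33, Prss57 and Mki67 a higher one. The sum of the 5 was between 490.5 and 803 across acLDL libraries and between 432.5 and 497 across controls. Most of it came from Cd33, which was between 395.5 and 526 across acLDL libraries and between 345 and 432 across controls.

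Eosinophil and basophil markers had a lower mean in 8 of 8 tested genes, and their sum was between 66.4 and 1477.2 across acLDL libraries and between 911 and 1680.7 across controls. Prg2, of eosinophil granules, had 846, 153, 13.2 and 349.5 in acLDL libraries 1 to 4, against 627, 770.0, 870.4 and 756 in control libraries 1 to 4. Monocyte markers, 5 of 8 with a lower mean, had a sum between 7950.1 and 12325.0 across acLDL libraries and between 7976.4 and 8940.0 across controls, with Csf1r, the CSF1 receptor gene, as its most abundant gene. Without Csf1r, left out after its values were seen, the sum was between 2256.0 and 3863.5 across acLDL libraries and between 3362.7 and 4649.3 across controls. Of this list Ccr2, a chemokine receptor of monocytes, had 1639.0, 738, 796 and 1180.5 in acLDL libraries 1 to 4, against 1849.0, 2100.2, 2043.7 and 1940.8 in control libraries 1 to 4, without overlap (log2 fold change -0.94, limma's adjusted p = 0.298). Dendritic cell markers, 7 of 8 with a lower mean, had a sum between 34811.8 and 44609.6 across acLDL libraries and between 31174.6 and 35070.5 across controls, most of it from H2-Eb1, an MHC class II gene. Without H2-Eb1, likewise left out after its values were seen, the sum was 14864.5, 679, 330.5 and 3664.7 in acLDL libraries 1 to 4, against 4563.4, 13157.5, 13415.3 and 10985.2 in control libraries 1 to 4. Macrophage markers, 6 of 7 with a lower mean, had a sum between 1401.9 and 4377.9 across acLDL libraries and between 3410.3 and 3879.7 across controls. Of 7 erythroid markers 2 were tested, with a sum between 83.7 and 212 across acLDL libraries and between 272 and 1479.7 across controls, and of 8 lymphocyte markers 3, with a sum between 29.4 and 76.75 across acLDL libraries and between 29.9 and 78.1 across controls. The part of these cell types in the values of the granule genes was not tested.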

How the data were processed

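The labels' protocols name RNeasy extraction and a Lexogen QuantSeq 3' kit, while the design text says 5'. The submitters' processing notes list bcl2fastq 2.20, kallisto and mm10 (GRCm38); other steps by the authors, including normalization, are not stated. The deposited values are a normalized signal per gene, not counts: 11.2% to 13.3% of the low values checked were whole multiples of a library's step (tolerance 0.01), so reads were not recovered. The depth in reads is therefore unknown, and no counting interval was computed.

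Genes at 10 or more in at least 4 libraries were tested with limma 3.58.1 (R 4.3.3) on log2(value + 5). The two-sided fit had trend, robust moderation and group as the only term. It was checked on simulated data with independent genes and equal spread in both groups. That check does not cover the shared and unequal spread of the acLDL libraries. Adjusted p-values (Benjamini-Hochberg, threshold 0.05) cover all tested genes. This scale understates changes of low genes. Up to 3 genes of smallest p are named per list; for likeness, the 5 nearest to the mean profile and the 3 nearest to the gene of smallest p in each class. Genes and lists were chosen with earlier results of these data known. GENCODE M21 gave a length for 86.2% of genes. Near copies may share reads. Alternatives changed the pseudocount, filter, scaling, libraries, weights, replicate block and covariate. Other steps used Python 3.11.15.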

Additional observations from a re-analysis of the deposited data

Results flagged for a closer look

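Library 1 of the acLDL group lay far above the other 3 acLDL libraries for 3 genes, by Dixon's criterion at 95% for 4 values. Ngp was at 674 there, Camp at 79.3 and Prtn3 at 33. Of 16 groups of 4 values tested, 3 met the criterion, which chance meets in about 1 in 20, and all 3 come from one library. These are deposited values that include genes listed at 0. On the log2(value + 5) scale used for the tests, 0 of the 16 groups met the criterion.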

How the results depend on the processing

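The count of genes past limma's threshold, 0 with all 8 libraries, was 1 after quantile normalization, 1957 with array weights (acLDL library 1 had the lowest, 0.342), between 0 and 2102 when each library was left out, and 2190 without acLDL library 1 on the genes of the full fit, a setting chosen after seeing the data. For the 8 granule and calprotectin genes these counts were 2 with weights (Ngp and Camp), 0 to 3, and 3. For the 55 related genes they were 16, 0 to 22, and 24. Over all tested genes, 1957 of 10091 were called with weights and 2102 of 9476 without acLDL library 1. On the genes of the full fit without that library, the count was 2190 of 10091. The log2 fold change changed sign with the short-transcript covariate for S100a8 (0.02), Lcn2 (0.10) and Prtn3 (0.00), and for Mpo after quantile normalization (0.06) and within its range of -0.51 to 0.11 when each library was left out. Ngp, Camp, S100a9 and Ltf kept their sign under every alternative run, though with the covariate S100a9 was only at -0.03 and Ltf at 0.01. The median of all tested genes was 0.15 after quantile normalization, against -0.13 as deposited. Same-numbered libraries did not deviate together (correlations -0.553 to 0.0341, and 0 of 8 libraries correlated best with their own number); the replicate block called 0 genes, with 730 at an unadjusted p under 0.05 against 1650 without it. Prtn3 has no value where it failed a filter. The cause of these changes was not tested.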
